A study of Mus musculus with 8 samples.

Results

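The 10 genes described here, Adipoq, Lep, Plin1, Plin4, Fabp4, Cfd, Cidec, Pparg, Lipe and Car3, are genes typical of fat cells, measured within whole skeletal muscle. They were chosen by name as adipocyte genes and make up 10 of the 49315 genes counted. All 10 were among the 19571 genes kept after a filter on low counts. The muscle was the gastrocnemius, the large muscle of the calf, of C57BL/6 mice, an inbred laboratory strain, aged 3, 12, 24 or 30 months. RNA of frozen muscle was sequenced in 8 libraries, 2 for each age, and no genotype or treatment other than age separated the groups. The study compared this muscle between adult life and old age. Nothing in the labels ties the paired libraries of an age to different mice. A p-value here therefore weighs only library to library spread, which may be technical.

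Adipocytes store triglyceride in a large droplet and release fatty acids and hormones. Within muscle they lie between the fibres and the bundles of fibres, arise from fibroadipogenic progenitors of the connective tissue, and are known to grow more numerous in injured, inactive or aged muscle. Their genes are switched on by the nuclear receptor PPAR-gamma together with transcription factors of the C/EBP family. Several of the genes are also used by other cells of muscle. Fabp4 is made by capillary endothelium and macrophages, Lipe and Plin4 by muscle fibres, and Car3 is abundant in slow fibres.

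The libraries held 42404254 to 59245029 counts, and 3 counts, the limit that a count of 0 allows, came to 0.0556 to 0.0659 CPM (counts scaled to the size of the library after TMM normalisation). That limit covers counting error only. Genes of muscle fibres such as Acta1 and Ckm were abundant in every library, at a summed level of 195705 to 299059 CPM for 8 genes. Both libraries of 3 months, library 1 of 12 months, library 1 of 24 months and library 2 of 30 months also held transcripts of kidney genes. Summed over 9 genes, these were highest at 3 months, at 50.6 and 16.3 CPM. They came to 5.57, 4.27 and 3.74 CPM in the libraries of 12, 24 and 30 months just named. The other 3 libraries had 0.682 to 0.769 CPM. The 3 month age is therefore represented only by libraries with kidney transcripts, and the later ages by a library of each kind. The same library set also split genes of the circadian clock. Without kidney transcripts, Dbp stood at 65.3, 81.0 and 70.8 CPM at 12, 24 and 30 months. The libraries with them had 8.32 to 30.8 CPM. Arntl went the other way, at 9.36, 12.0 and 12.5 CPM against 28.0 to 49.5 CPM. Kidney transcripts and clock genes cannot be told apart in this set. A skin list of 6 genes summed to 1.36 to 2.01 CPM, nearly all of it Krt10, and Krt5 and Krt14, which define skin epithelium, reached at most 0.0216 and 0.0390 CPM. The libraries of an age differed from each other by more than sampling noise and were kept as separate libraries. That does not settle whether they came from different animals, since no libraries known to repeat 1 animal are at hand.

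Promoters are shown for Adipoq, for Cidec and Plin1, whose levels followed it across libraries, and for Lep, which differed most between libraries. Cfd and Pparg also followed Adipoq, and their promoters are not shown. They were taken from RefSeq on GRCm38.p6, 250 bases before to 50 bases after the start, 5′ to 3′ on the strand of the gene, and 8 of the 10 genes matched with 12 promoters. Fabp4 and Car3 had no entry. Capitals mark each match to TTNNGNAA, a short form of the C/EBP site, read on both strands.
Adipoq, chr16:23146286-23146585, plus strand: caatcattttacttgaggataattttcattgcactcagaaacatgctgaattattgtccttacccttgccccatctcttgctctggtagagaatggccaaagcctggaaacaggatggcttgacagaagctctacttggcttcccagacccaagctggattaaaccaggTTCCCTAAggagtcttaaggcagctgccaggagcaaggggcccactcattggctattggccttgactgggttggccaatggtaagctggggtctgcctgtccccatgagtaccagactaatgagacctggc
Cidec, chr6:113435711-113436010, minus strand: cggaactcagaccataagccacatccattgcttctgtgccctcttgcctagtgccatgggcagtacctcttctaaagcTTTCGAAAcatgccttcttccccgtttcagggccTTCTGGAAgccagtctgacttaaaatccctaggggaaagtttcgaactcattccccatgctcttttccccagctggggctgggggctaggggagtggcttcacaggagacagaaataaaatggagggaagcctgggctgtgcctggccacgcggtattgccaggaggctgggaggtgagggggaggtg
Plin1, chr7:79732727-79733026, minus strand: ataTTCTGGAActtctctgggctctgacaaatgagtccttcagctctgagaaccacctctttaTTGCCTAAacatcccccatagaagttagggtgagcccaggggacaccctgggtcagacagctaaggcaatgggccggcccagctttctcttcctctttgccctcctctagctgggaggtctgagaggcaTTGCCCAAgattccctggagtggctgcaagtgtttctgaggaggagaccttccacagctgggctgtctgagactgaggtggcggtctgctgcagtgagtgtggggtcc
Lep, chr6:29059971-29060270, plus strand: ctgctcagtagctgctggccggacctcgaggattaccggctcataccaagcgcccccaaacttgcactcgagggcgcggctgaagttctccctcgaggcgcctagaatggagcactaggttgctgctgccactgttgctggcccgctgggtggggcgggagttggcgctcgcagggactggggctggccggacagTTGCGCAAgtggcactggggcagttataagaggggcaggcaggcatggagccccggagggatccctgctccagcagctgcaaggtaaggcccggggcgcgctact

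The match of Lep, TTGCGCAA, began 55 bases before the start and read the same on both strands. That of Adipoq, on the minus strand, began 81 bases before the start. Cidec had a pair of matches in the promoter shown, and Plin1 had 3. Of the 12 promoters, 6 held the motif, which stood in 40.7% of all 32851 promoters of the same length. All promoters shown are among these 6. Of those not shown, the Cfd promoter held no match, and only some of the Pparg promoters did. The site of PPAR-gamma with its partner RXR, a direct repeat of AGGTCA with 1 base between the copies, was searched on both strands with up to 2 mismatches in its 12 fixed bases. It matched 0 of the 12 promoters and 3.86% of all. TATAAA, searched on the strand of the gene, was in 0 of the 12 and in 8.32% of all. A match is only a run of letters, and a missing match says only that the letters are not in this window.

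In these muscle libraries the 10 genes spanned a wide range of levels. On the scale of CPM per kilobase of exon, which allows levels of different genes to be set side by side, Car3 came first with 544 ± 123 (SD over 8 libraries), a level above that of 99.7% of the tested genes. Cfd followed with 64.2 ± 21.7 and Plin4 with 43.5 ± 7.88 CPM per kilobase, and the ranges of these 2 genes overlapped. Fabp4 had 18.0 ± 1.89 and Adipoq 7.29 ± 2.57. The exon length given for Fabp4 equals the full span of the gene, so its level per kilobase is set low relative to the others. Cidec at 3.44 ± 1.01, Lipe at 3.42 ± 0.433 and Plin1 at 2.17 ± 0.673 CPM per kilobase overlapped each other. Pparg had 1.17 ± 0.267 and Lep 0.530 ± 0.347 CPM per kilobase, the lowest of the 10, with 32.0% of the tested genes below Lep. Ranges of neighbours in this order overlapped everywhere except between Car3 and Cfd, Plin4 and Fabp4, and Fabp4 and Adipoq.

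**Figure D1:**
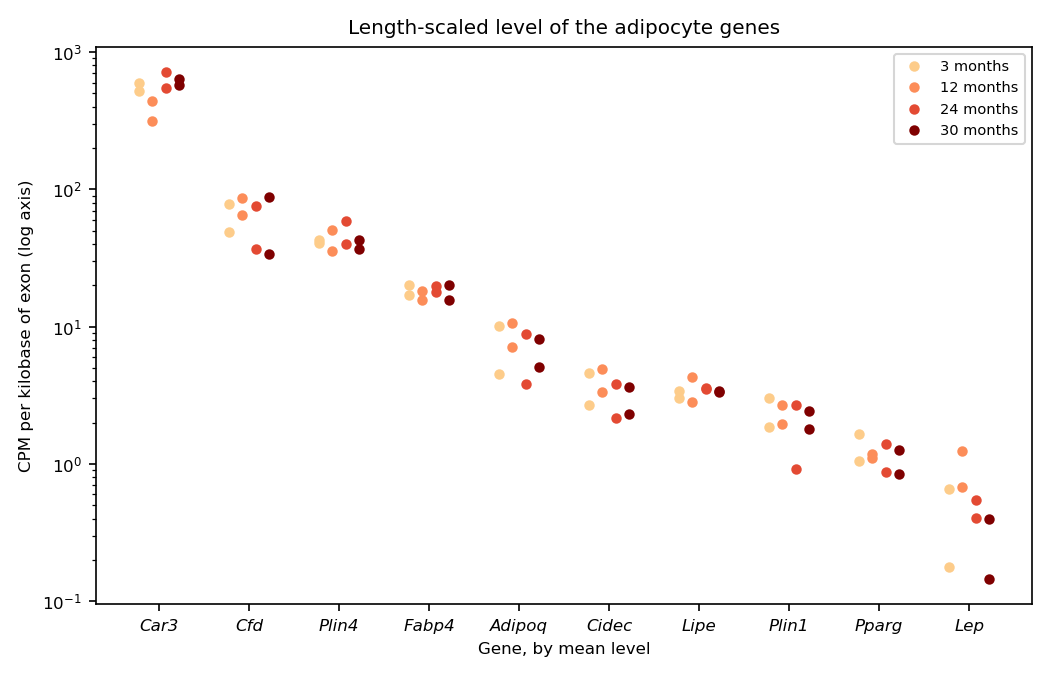
Levels of the 10 adipocyte genes in CPM per kilobase of exon on a log axis, with a point for each of the 8 libraries and the genes ordered by their mean. Car3, at 313 to 712 CPM per kilobase, stands above all others, and Lep, at 0.146 to 1.24, has the lowest and the widest points.

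The question for each gene was whether its level in muscle at 12, 24 or 30 months differed from that at 3 months. None of the 10 passed the test in any of the 6 pairs of ages. For 30 against 3 months, edgeR's quasi-likelihood test with Benjamini-Hochberg adjustment over all 19571 genes called 0 of the 10, with adjusted p from 0.836 to 0.986, where 0.148% of all tested genes were called. At an unadjusted p below 0.05 the count was also 0, where 8.52% of all tested genes passed, and DESeq2 and limma-voom each called 0. The log2 fold change was positive for 2 of the 10 genes and negative for 8, with a median of -0.10, against 0.0093 over all tested genes. The levels of the 2 ages overlapped for all 10 genes, whereas 41.2% of the tested genes had no overlap. Leaving out a single library turned the sign for 9 of the 10 genes, all but Car3. In bulk muscle, the number of adipocytes and the RNA per adipocyte cannot be told apart. Fat between the fibres also cannot be told apart from fat around the muscle taken along with it.

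**Figure D2:**
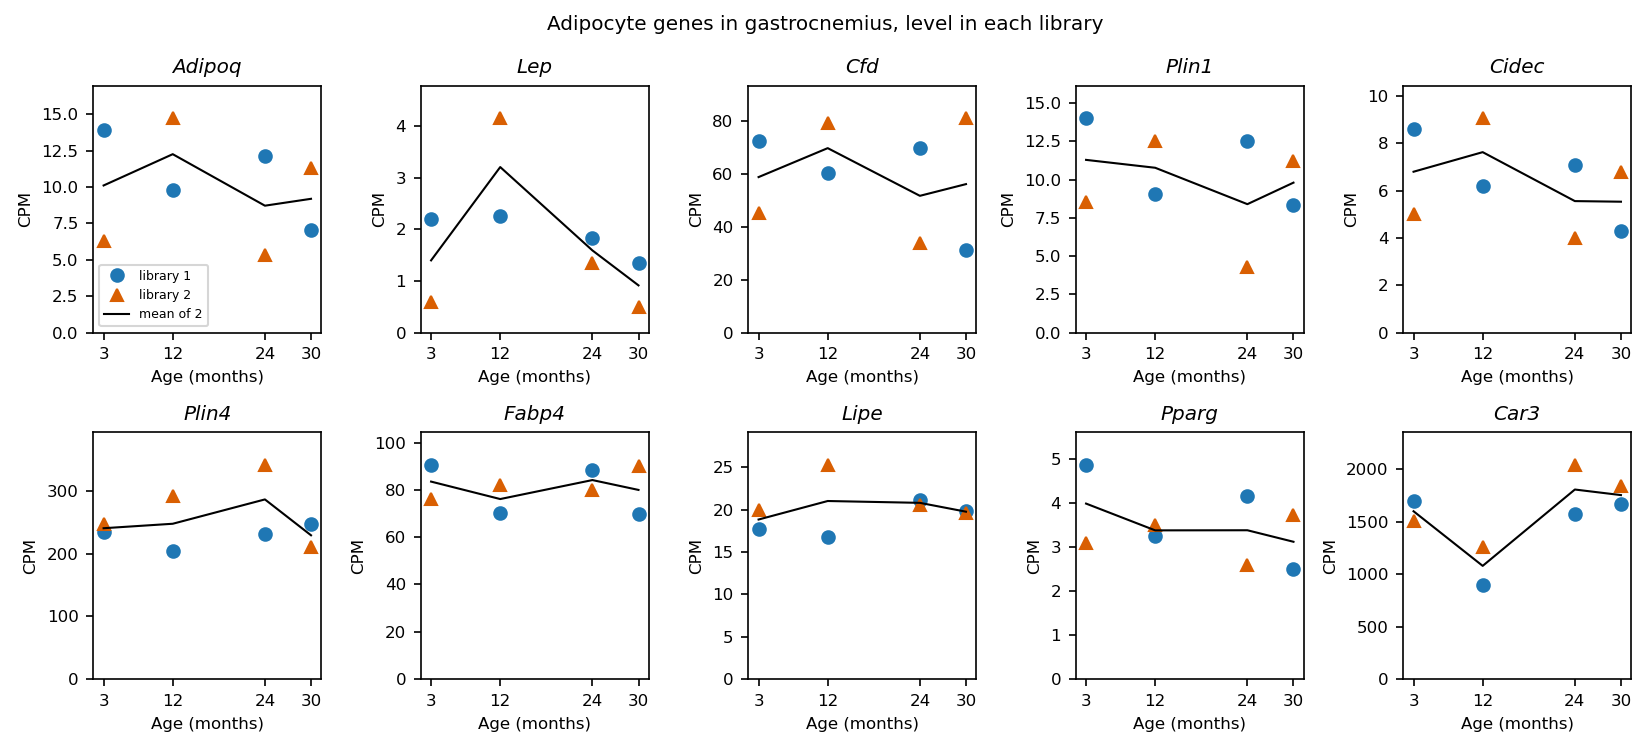
CPM of each of the 10 genes against age in months, with library 1 as circles, library 2 as triangles and a line through the mean of each age. The libraries of an age lie far apart for Adipoq, Lep, Plin1, Cfd and Cidec and close together for Fabp4, and for Adipoq the higher library is number 1 at 3 and 24 months and number 2 at 12 and 30 months.

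The secreted products come first. Adipoq (ENSMUSG00000022878, GRCm38 chr16:23146536-23158028, plus strand) encodes adiponectin, a hormone made almost solely by adipocytes that raises fatty acid oxidation in muscle. Its CPM values were 13.9 and 6.27 in the 3-month libraries, 9.78 and 14.7 in the 12-month, 12.1 and 5.32 in the 24-month, and 7.07 and 11.3 in the 30-month libraries. Every age held a high and a low library, and all ages overlapped. Adipoq averaged 9.19 ± 2.99 CPM in the 30-month libraries and 10.1 ± 5.42 CPM in the 3-month libraries (SD, n = 2 each). The log2 fold change was -0.13 with a standard error of 0.48 and an adjusted p of 0.967 in edgeR. The 95% interval of the fold ran from 0.422 to 1.97.

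Lep (ENSMUSG00000059201, chr6:29060220-29073877, plus strand) encodes leptin, the hormone by which fat stores signal to the hypothalamus. It stood at 2.20 and 0.593 CPM in the 3-month libraries, 2.26 and 4.15 in the 12-month, 1.84 and 1.34 in the 24-month, and 1.34 and 0.489 in the 30-month libraries. These levels rest on 26 to 213 counts per library. Both libraries of 12 months were above both of every other age, the lower of them by a small margin over library 1 of 3 months. For 30 against 12 months, Lep averaged 0.914 ± 0.602 CPM in the 30-month libraries and 3.21 ± 1.34 CPM in the 12-month libraries (SD, n = 2 each), a log2 fold change of -1.82 with a standard error of 0.65. Its unadjusted p of 0.0223 became 0.863 after adjustment in edgeR. For 12 against 3 months the log2 fold change was 1.21 with an adjusted p of 0.899. It was 2.43 without library 1 of 3 months, 0.54 without library 2 of 3 months and 0.69 without library 2 of 12 months. For 30 against 3 months it was -0.61, and the 95% interval of the fold, 0.227 to 1.88, was the widest of the 10 on the log scale.

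Cfd (ENSMUSG00000061780, chr10:79890853-79892656, plus strand) encodes adipsin, or complement factor D, a protease of the alternative complement pathway secreted by fat. Its CPM values were 72.7 and 45.2 in the 3-month libraries, 60.5 and 79.3 in the 12-month, 69.8 and 33.8 in the 24-month, and 31.3 and 81.2 in the 30-month libraries. Both the lowest and the highest of the 8 libraries were at 30 months. Cfd averaged 56.3 ± 35.3 CPM in the 30-month libraries and 58.9 ± 19.4 CPM in the 3-month libraries (SD, n = 2 each), a log2 fold change of -0.066 with an adjusted p of 0.986 in edgeR.

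The coat of the lipid droplet was represented by 3 genes. Plin1 (ENSMUSG00000030546, chr7:79720218-79732903, minus strand) encodes perilipin 1, which covers the adipocyte droplet and guards it from lipases. It stood at 14.0 and 8.57 CPM in the 3-month libraries, 9.06 and 12.5 in the 12-month, 12.5 and 4.29 in the 24-month, and 8.37 and 11.2 in the 30-month libraries. Library 2 of 24 months was the lowest, and all ages overlapped. The log2 fold change for 30 against 3 months was -0.20 with an adjusted p of 0.948 in edgeR.

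Cidec (ENSMUSG00000030278, chr6:113424634-113435760, minus strand) encodes a protein that fuses small droplets into the single large droplet of white adipocytes. Its CPM values were 8.60 and 5.01 in the 3-month libraries, 6.19 and 9.07 in the 12-month, 7.11 and 4.01 in the 24-month, and 4.28 and 6.79 in the 30-month libraries. As for Adipoq, each age held a higher and a lower library. Cidec averaged 5.53 ± 1.77 CPM in the 30-month libraries and 6.80 ± 2.54 CPM in the 3-month libraries (SD, n = 2 each), with an adjusted p of 0.897.

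Plin4 (ENSMUSG00000002831, chr17:56100591-56109803, minus strand) encodes perilipin 4, which coats nascent droplets and is also made by muscle fibres. It stood at 235 and 247 CPM in the 3-month libraries, 204 and 292 in the 12-month, 231 and 342 in the 24-month, and 248 and 211 in the 30-month libraries. Its order across libraries was not that of Plin1. The 5 libraries with kidney transcripts, at 204 to 247 CPM, were all below the 3 without, at 248 to 342 CPM, and that split of the libraries and its part in the level were not tested. For 30 against 3 months the log2 fold change was -0.069 with an adjusted p of 0.964 in edgeR.

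Fabp4 (ENSMUSG00000062515, chr3:10204088-10208576, minus strand) encodes the fatty acid carrier of the adipocyte cytosol. Its CPM values were 90.7 and 76.4 in the 3-month libraries, 70.1 and 82.2 in the 12-month, 88.5 and 79.9 in the 24-month, and 69.8 and 90.2 in the 30-month libraries. The highest library had 1.30 times the level of the lowest, the smallest span among the 10 genes. The 95% interval of the fold for 30 against 3 months was 0.722 to 1.27. Of the 2 other cell types that make Fabp4, endothelium had a summed level of 258 to 342 CPM for 10 genes and macrophages 141 to 407 CPM for 10 genes. All 10 genes of both lists were tested and none was called for 30 against 3 months in edgeR. An unadjusted p below 0.05 was found for 1 endothelial and 2 macrophage genes, where 8.52% of all tested genes had one. With the library set as a term in the fit, 7 of the 10 macrophage genes were called higher at 30 months, where 1.48% of all tested genes were called higher in that fit. The summed macrophage level was high in library 2 of 30 months, at 407 CPM, and 223 CPM in library 1, against 208 and 237 CPM in the 3-month libraries. The part of these cells in the level of Fabp4 was not tested.

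Lipe (ENSMUSG00000003123, chr7:25379527-25398710, minus strand) encodes hormone-sensitive lipase, which cleaves diglyceride when fat is mobilised and also works in muscle fibres. It stood at 17.7 and 19.9 CPM in the 3-month libraries, 16.7 and 25.3 in the 12-month, 21.1 and 20.5 in the 24-month, and 19.9 and 19.7 in the 30-month libraries. The spread was small except at 12 months, which held both the lowest and the highest library. Lipe averaged 19.8 ± 0.140 CPM in the 30-month libraries and 18.8 ± 1.55 CPM in the 3-month libraries (SD, n = 2 each), with a 95% interval of the fold from 0.779 to 1.41. Lipe overlaps the antisense gene 4732471J01Rik over 19184 bases. How strand was handled in counting is not known here, and reads of these genes may not have been told apart.

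Pparg (ENSMUSG00000000440, chr6:115360951-115490399, plus strand) encodes PPAR-gamma, the factor that drives adipocyte differentiation. Its CPM values were 4.86 and 3.10 in the 3-month libraries, 3.25 and 3.49 in the 12-month, 4.16 and 2.59 in the 24-month, and 2.504 and 3.72 in the 30-month libraries. All ages overlapped, and the highest library was number 1 of 3 months. Its adjusted p of 0.836 was the lowest of the 10 for 30 against 3 months, at a log2 fold change of -0.35 and a 95% interval of the fold from 0.482 to 1.28. Pparg overlaps the antisense gene Gm44079 over 13176 bases, with the same limit on strand.

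Car3 (ENSMUSG00000027559, chr3:14863512-14872523, plus strand) encodes carbonic anhydrase III, a cytosolic enzyme abundant in both adipocytes and slow fibres. It stood at 1694 and 1501 CPM in the 3-month libraries, 896 and 1259 in the 12-month, 1568 and 2041 in the 24-month, and 1664 and 1840 in the 30-month libraries. Both libraries of 12 months were below all other libraries. For 12 against 3 months, Car3 averaged 1078 ± 257 CPM in the 12-month libraries and 1598 ± 136 CPM in the 3-month libraries (SD, n = 2 each), a log2 fold change of -0.57 with a standard error of 0.25. Its unadjusted p of 0.045 became 0.898 after adjustment in edgeR. Without library 1 of 12 months that log2 fold change was -0.34. For 24 against 12 months the log2 fold change was 0.74 with an adjusted p of 0.994, and for 30 against 12 months it was 0.70 with an adjusted p of 0.859.

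Slow fibre genes were read beside Car3. Their summed level, over 10 genes, was 884 and 560.0 CPM in the 3-month libraries, 1437 and 1031 in the 12-month, 1498 and 1154 in the 24-month, and 1754 and 3007 in the 30-month libraries. For 30 against 3 months, Myh7, the slow myosin heavy chain, rose by 2.77 on the log2 scale with an adjusted p of 0.0280 in edgeR, the only call among the 10, and all 10 had a positive fold change. The call of Myh7 held in 4 of 8 fits with a library left out. It ended without either library of 3 months or of 24 months, with adjusted p of 0.137, 0.297, 0.0743 and 0.0837 in that order. It also ended with the replicate block (adjusted p 0.0687), on library totals alone (adjusted p 0.116) and with only the 4 libraries compared (adjusted p 0.0825). With the library set as a term, 7 of the 10 slow fibre genes were called higher, where 1.48% of all tested genes were. Over the 8 libraries, log2 CPM of Car3 and Myh7 had a Pearson r of 0.12 with Spearman's rho of 0.26. Against Tnnt1, the slow troponin T, chosen as a further slow fibre gene, r was 0.13 and rho 0.26. These are descriptions over libraries that share their depth and set. The part of slow fibres in the level of Car3 was not tested.

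**Figure D3:**
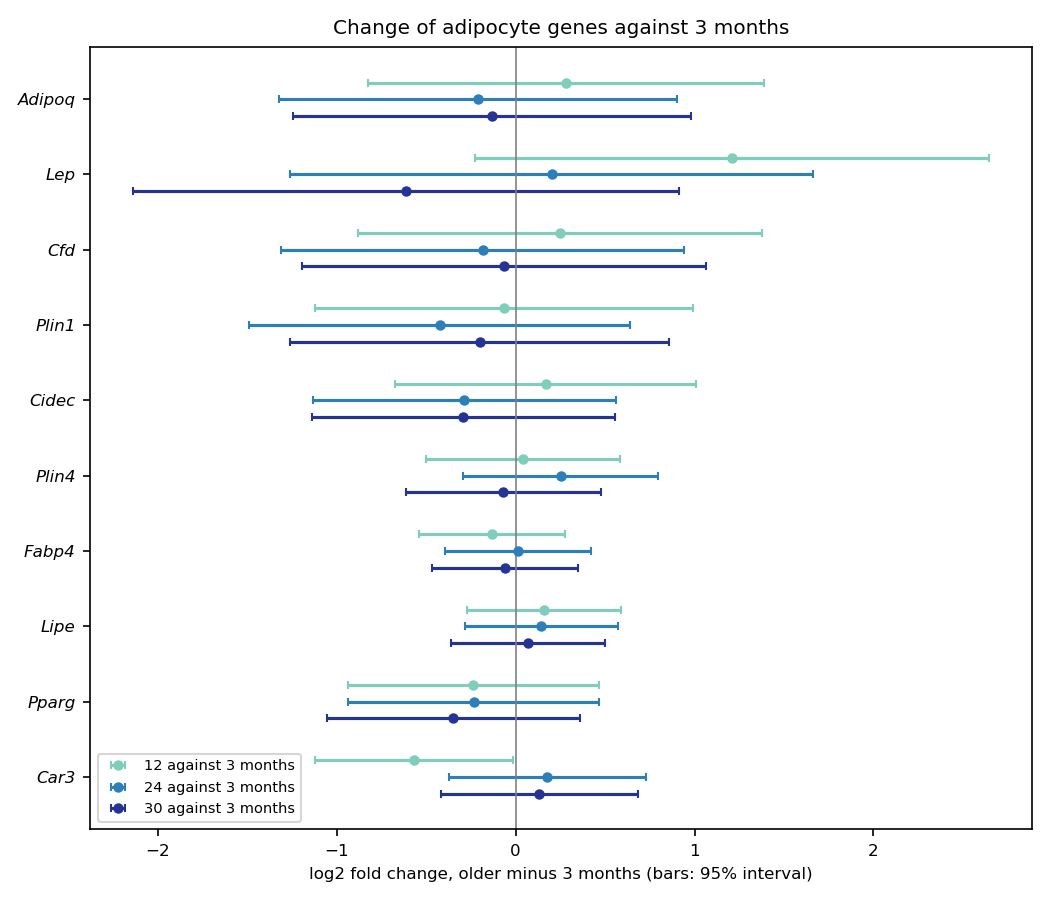
Log2 fold changes of the 10 genes at 12, 24 and 30 months against 3 months, with 95% intervals from the fit. The interval crosses 0 for every gene and age except Car3 at 12 months, which did not pass after adjustment.

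The other pairs of ages gave the same count. For 24 against 3 months edgeR called 0 of the 10, with adjusted p from 0.829 to 0.992, where 0.102% of all tested genes were called. Fold changes were positive for 5 genes and negative for 5, with a median of -0.087 against 0.015 over all tested genes. Lipe alone had no overlap, where 39.4% of tested genes had none. For 12 against 3 months 0 of the 10 were called, with adjusted p from 0.898 to 0.992, where 0.0409% of all were. Here 6 fold changes were positive and 4 negative, and Lep and Car3 had no overlap, against 38.5% of tested genes. Of the 10, 0 had an unadjusted p below 0.05 for 24 against 3 months, where 7.56% of all tested genes did, and 1, Car3, for 12 against 3 months, where 5.5% did.

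Among the later ages, 30 against 12 months gave 0 calls of the 10, where 0.00511% of all tested genes were called, and 2 unadjusted p below 0.05, for Lep and Car3, where 5.21% of all had one. These 2 genes had no overlap, against 31.8% of tested genes. For 24 against 12 months and for 30 against 24 months edgeR called 0 of the 10 and 0% of all tested genes, with 1 unadjusted p below 0.05, that of Car3, in the 24 against 12 comparison and 0 in the other, where 3.07% and 3.1% of all tested genes had one in that order. Levels did not overlap for Lep and Car3 between 24 and 12 months, against 28% of tested genes, nor for Lep and Lipe between 30 and 24 months, against 25.6%. The last gap of Lep lay within counting error. It was 1.340 CPM (61 counts) in library 1 of 30 months against 1.344 CPM (69 counts) in library 2 of 24 months. The test across the 4 ages called 0 of the 10, where 0.0613% of all were called, and its smallest unadjusted p was 0.0549, for Car3. A slope on age called 0 of the 10, where 0.133% of all were called, with 3 positive and 7 negative slopes. DESeq2 and limma-voom also called 0 of the 10 in each of the 8 tests.

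The spread between the libraries of an age set the members apart from each other. The biological coefficient of variation, the spread beyond counting noise that edgeR fits, was 0.434 for Lep, 0.341 for Cfd, 0.337 for Adipoq, 0.324 for Plin1 and 0.265 for Cidec. The median over tested genes was 0.179. Of the tested genes, 97.9% had a smaller value than Lep and 93.1% a smaller value than Adipoq. Pparg had 0.226, Plin4 0.183, Car3 0.173, Lipe 0.154 and Fabp4 0.1495. Plin4, Car3, Lipe and Fabp4, which other cells of muscle also make, stood near or below the median. The part of those cells, or of a gene's level, in this spread was not tested.

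Within an age, the same library tended to be high for several of the genes. Adipoq was higher in library 1 at 3 months by 2.22 times (95% counting interval 1.95 to 2.54), in library 2 at 12 months by 1.51 times (1.34 to 1.69), in library 1 at 24 months by 2.28 times (1.97 to 2.63) and in library 2 at 30 months by 1.60 times (1.39 to 1.83). Plin1, Fabp4, Cfd, Cidec and Pparg were higher in that same library at all 4 ages. Lep and Car3 matched Adipoq at 3 of the 4 ages, Lipe at 2 and Plin4 at 1. For Pparg at 12 months the ratio was only 1.07 (0.864 to 1.33). Counting intervals for Lep at 24 months and Lipe at 24 and 30 months also held 1. Which library was higher is not settled in these cases. Without TMM, on library totals alone, Lipe matched at 4 ages and Plin4 at 3. At 12 months the higher library for Adipoq was the one without kidney transcripts, and at 24 and 30 months it was the one with them.

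**Figure D4:**
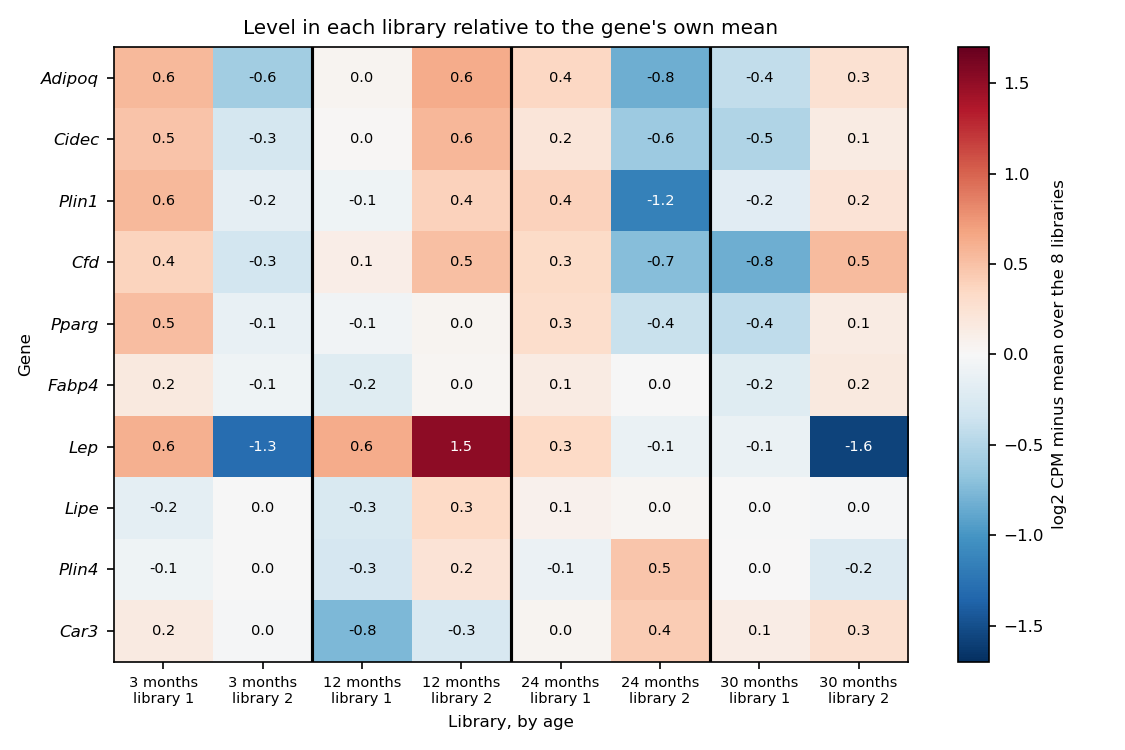
Log2 CPM of each gene in each library minus the mean of that gene over the 8 libraries. Adipoq, Cidec, Cfd, Plin1 and Pparg have high and low values in the same libraries, while Plin4, Lipe and Car3 follow other orders on this TMM scale; on library totals alone Lipe and Plin4 came closer to Adipoq.

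Over the 8 libraries, log2 CPM of Adipoq had a Pearson r of 0.97 with Cidec, 0.90 with Cfd, 0.90 with Plin1 and 0.83 with Pparg. Spearman's rho was 0.98, 0.79, 0.90 and 0.79 for these genes in that order. Without library 2 of 3 months and library 2 of 24 months, which were farthest from the median of Adipoq, r was 0.995 with Cidec, 0.90 with Cfd, 0.93 with Plin1 and 0.82 with Pparg. Fabp4 had r of 0.57 and Lep 0.50. Lipe at 0.15, Car3 at -0.30 and Plin4 at -0.41 did not share the order of Adipoq. These values describe libraries that share depth, scaling and the 2 sets, and carry no p.

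Of the 12036 genes ranked by their likeness to Adipoq, the 5 highest outside the 10 were Fam234b at r of 0.98, Telo2 at 0.95, Prkar2b at 0.95, Kif5c at 0.94 and Hgh1 at 0.94. Fam234b spanned only 3.66 to 4.95 CPM over the libraries, against 5.32 to 14.7 CPM for Adipoq. Prkar2b encodes a regulatory subunit of protein kinase A that is abundant in fat. It stood at 5.06 and 2.95 CPM in the 3-month libraries, 3.31 and 4.25 in the 12-month, 4.21 and 2.20 in the 24-month, and 2.86 and 3.61 in the 30-month libraries. Prkar2b was picked out for its link to fat, and no such link is given for the others. The median r with Adipoq was 0.57 over the other 9 genes and -0.075 over all ranked genes. The same library was higher in all 4 ages for 5 of the 9 (55.6%) and for 481 of the 12036 ranked genes (3.996%). The 5 include Pparg, whose order at 12 months was within counting error.

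A list of 20 further adipocyte genes was read in the same way, of which 19 were tested. Their median r with Adipoq was 0.64, and 8 of the 19 (42.1%) were higher in the same library as Adipoq at all 4 ages. Retn, an adipokine gene chosen here after its values were seen, had r of 0.93 and Cebpa, a partner of PPAR-gamma in adipocyte differentiation, 0.88. Gpd1, a glycerol phosphate enzyme that fibres also express and the most abundant of the list at a mean of 408 CPM, had r of -0.51. For 30 against 3 months edgeR called 0 of the 19, with 1 unadjusted p below 0.05, and 2 fold changes were positive and 17 negative. Their median was -0.46, against 0.0093 over all tested genes. In the fit that also held the library set, the value became positive for Adig (0.095), Aqp7 (0.076), Cebpa (0.048) and Agpat2 (0.062). It became negative for Nnat (-0.14). Many of the 19 genes also followed Adipoq across libraries, so the 17 negative signs are not 17 separate results. Cebpa averaged 11.4 ± 0.365 CPM in the 30-month libraries and 11.7 ± 2.30 CPM in the 3-month libraries, and Thrsp, a regulator of lipid synthesis, 8.42 ± 3.06 and 11.4 ± 4.08 CPM at these ages in that order (SD, n = 2 each).

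The brown fat list was low. Ucp1, the uncoupling protein that defines brown adipocytes, had 0 counts in all 8 libraries, which allows up to 0.0556 to 0.0659 CPM in a library. The summed level of the 6 genes was 4.88 to 11.3 CPM. Dio2, which activates thyroid hormone and is also made in muscle, averaged 5.32 ± 2.08 CPM in the 30-month libraries and 2.95 ± 0.0782 CPM in the 3-month libraries (SD, n = 2 each), with an adjusted p of 0.638 in edgeR. With the library set, which also splits the clock genes, as a term in the fit, Dio2 passed, as did 2.13% of all tested genes. Its log2 fold change was 1.24 (adjusted p 0.00786). Leaving out library 1 or 2 of 3 months or library 2 of 30 months ended that call, with adjusted p of 0.0507, 0.0667 and 0.0839 in that order. Of the 4 genes tested, 0 were called for 30 against 3 months, with 1 unadjusted p below 0.05, where 8.52% of all tested genes had one. Fold changes were positive for 3 and negative for 1, with a median of 0.93, and all 4 were positive at 24 and at 12 months against 3 months.

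Transcription factors of fat cell development, 16 genes, gave 0 calls for 30 against 3 months in edgeR. There was 1 unadjusted p below 0.05, where 8.52% of all tested genes had one. Fold changes were positive for 7 and negative for 9, with a median of -0.027. Rxra, the partner of PPAR-gamma on DNA, averaged 130.3 ± 58.3 CPM in the 30-month libraries and 138 ± 22.2 CPM in the 3-month libraries. Srebf1, which drives lipid synthesis, averaged 42.7 ± 12.0 CPM in the 30-month libraries and 62.4 ± 5.93 CPM in the 3-month libraries (SD, n = 2 each), with an adjusted p of 0.689. Srebf1 passed once the library set was a term, with a log2 fold change of -0.87 (adjusted p 0.0306). That call ended when either library of 3 months or of 30 months was left out, with adjusted p of 0.0613 to 0.281. Fibroadipogenic progenitor genes, the source cells of muscle fat, gave 0 calls of 12 and no unadjusted p below 0.05, with 3 positive and 9 negative fold changes. Summed over the 12 genes, the level was 1645 and 1671 CPM in the 30-month libraries, against 1949 and 2252 CPM in the 3-month libraries. Most of that sum was Gsn alone. It averaged 925 ± 3.88 CPM in the 30-month libraries and 1273 ± 190 CPM in the 3-month libraries (SD, n = 2 each). The sum is therefore largely the level of 1 gene.

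Genes of the lipid droplet and of fatty acid use, 17 tested, gave 0 calls for 30 against 3 months with 1 unadjusted p below 0.05. Of all tested genes, 8.52% had such a p. Fold changes of the 17 were positive for 9 and negative for 8, with a median of 0.016. Their most abundant members were Lpl, the lipase on capillaries, at a mean of 487 CPM, Fabp3, the fatty acid carrier of muscle, at 288 CPM, and Cd36, a fatty acid transporter, at 244 CPM. The 6 genes for receptors of adipokines and their targets gave 0 calls and 2 unadjusted p below 0.05. The share over all tested genes was again 8.52%. The most abundant was Pdk4, a kinase that turns fibres from glucose to fatty acid use, at a mean of 328 CPM. Adipor1 and Adipor2, the receptors by which fibres sense adiponectin, had means of 241 and 127 CPM over the 8 libraries.

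Within the 5 libraries with kidney transcripts, the difference between the 30 month library and the mean of the 3 month libraries on the log2 scale was 0.27 for Adipoq, -1.17 for Lep, 0.036 for Plin1, -0.19 for Plin4 and 0.12 for Fabp4. It was 0.50 for Cfd, 0.048 for Cidec, -0.060 for Pparg, 0.064 for Lipe and 0.21 for Car3. A single library stands for 30 months in these differences, and they carry no test. Kidney transcripts in that library summed to 3.74 CPM, against 50.6 and 16.3 CPM in the 3-month libraries, so the set does not hold like libraries. With the set as a term, the log2 fold change of the kidney gene Lrp2 for 30 against 3 months was still -3.85. With the set as a term in the fit of all 8 libraries, 0 of the 10 were called for 30 against 3 months, and the log2 fold change was 0.045 for Adipoq, 0.023 for Plin1 and 0.16 for Cfd, the opposite sign to the fit without it.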

How the data were processed

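Gastrocnemius RNA of C57BL/6 mice was sequenced in 2 libraries at each of 4 ages. Each of the 8 deposited tables holds unnormalised read counts for 49315 Ensembl genes. The submitters' processing notes name GRCm38, mm10, STAR 2.5.2b, Trimmomatic 0.36, Subread 1.5.2 and featureCounts, without roles. Strand setting and the handling of multi-mapping reads: not given in the sources used here. Symbols from a table of gene names matched 48970 identifiers.

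Counts were fitted in R 4.3.3 with edgeR 4.0.16: filterByExpr, TMM, and a robust quasi-likelihood model of the 4 ages over 8 libraries with 4 residual degrees of freedom. It gave 6 pairwise contrasts and a test across ages. A separate model held a slope on age. A gene was called at a Benjamini-Hochberg adjusted p under 0.05 over all tested genes. Standard errors came from the log2 fold change and the F statistic. Log2 CPM for correlations used a prior count of 2. The fits were tested on simulated counts. Alternatives used DESeq2 1.42.0 and limma 3.58.1 (voom), other scalings and filters, fewer libraries, a replicate block, and the library set, taken from kidney transcripts above or below 1 CPM, as a term. Intervals of ratios between libraries are exact for counting error only.

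All 10 adipocyte genes are described. From other lists, up to 3 genes with the highest mean CPM and any called for 30 against 3 months were named, and the 5 tested genes most correlated with Adipoq. Acta1, Ckm, the skin keratins, Tnnt1, Ucp1, Retn, Dbp and Arntl were named outside this rule, with their values known. Members and lists were chosen with earlier results of these data known.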

Additional observations from a re-analysis of the deposited data

How the results depend on the processing

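No adipocyte gene was called in any of the 136 combinations of test and alternative that were run. Of the 18 alternatives, the fit of only the 4 libraries compared was run for the 6 pairs and the fit without the 3 month libraries for 2 tests. Over all of them the smallest adjusted p was 0.138, in DESeq2 for 30 against 12 months. The count over all genes did move. For 30 against 3 months it was 29, with 10 to 52 when a library was left out and 13 to 416 under the other settings. It was 20 for 24 against 3 months, with 5 to 33 when a library was left out and 9 to 233 otherwise, and 8 for 12 against 3 months, with 4 to 14 and 5 to 134. The log2 fold changes of the 10 genes against 3 months kept their sign in 261 values and turned in 9 under the other settings, and kept it in 203 and turned in 37 when a library was left out. Including the library set in the model turned the sign for Adipoq (0.045), Plin1 (0.023), Cfd (0.16) and Lipe (-0.024) for 30 against 3 months, for Lep (-0.035) and Cfd (0.077) for 24 against 3 months, and for Plin1 (0.23) and Plin4 (-0.20) for 12 against 3 months. On library totals alone it turned for Fabp4 for 24 against 3 months (-0.091). The cause was not tested. With a library left out in turn, the lone library of that age was taken to vary like those of other ages, and ranges are given for genes whose sign turned. The log2 fold change for 30 against 3 months then ranged from -0.60 to 0.55 for Adipoq, -1.497 to 0.61 for Lep, -0.51 to 0.19 for Plin1, -0.19 to 0.047 for Plin4, -0.25 to 0.11 for Fabp4, -0.91 to 0.46 for Cfd, -0.66 to 0.15 for Cidec, -0.66 to 0.0089 for Pparg and -0.014 to 0.16 for Lipe. The log2 fold change for 24 against 3 months then ranged from -0.92 to 0.47 for Adipoq, -0.47 to 1.42 for Lep, -1.39 to 0.14 for Plin1, -0.066 to 0.51 for Plin4, -0.11 to 0.14 for Fabp4, -0.80 to 0.23 for Cfd, -0.76 to 0.15 for Cidec, -0.61 to 0.12 for Pparg and -0.036 to 0.36 for Car3. The log2 fold change for 12 against 3 months then ranged from -0.18 to 0.97 for Adipoq, -0.38 to 0.33 for Plin1, -0.25 to 0.28 for Plin4, -0.052 to 0.63 for Cfd, -0.17 to 0.61 for Cidec, -0.52 to 0.12 for Pparg and -0.18 to 0.43 for Lipe. With the replicate number as a block, 0 of the 10 genes were called in each test, with a smallest adjusted p of 0.932 for 30 against 3 months. Same-numbered libraries of 6 pairs of ages had correlations of their deviations from -0.36 to 0.26. These values cannot decide whether the numbers pair the libraries, since the library set also differs with the number. The library with kidney transcripts was number 1 at 12 and 24 months and number 2 at 30 months. Without the 3 month libraries, an alternative chosen after seeing the data, 0 of the 10 were called across the ages or by slope. The fits of Myh7, Dio2 and Srebf1 with a library left out were also added then. Depth limits Lep most, at 26 counts in its lowest library. With 2 libraries per age, the 95% interval of the fold for 30 against 3 months reached 1.97 for Adipoq and 2.09 for Cfd. Differences within such intervals are not excluded by these data. A call asked for more than an interval that leaves out 1. That of Car3 for 12 against 3 months was 0.460 to 0.989, with an adjusted p of 0.898 in edgeR.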

Other observations

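Genes of the fat and lipid lists with the smallest unadjusted p for 30 against 3 months were looked up after their values were seen, and none passed the adjusted threshold in edgeR. Cebpd, an early factor of adipocyte differentiation that also responds to stress hormones, averaged 14.8 ± 4.62 CPM in the 30-month libraries and 45.6 ± 16.6 CPM in the 3-month libraries (SD, n = 2 each). Its log2 fold change was -1.63, with an adjusted p of 0.179. Pdk4 averaged 249 ± 53.2 CPM in the 30-month libraries and 540.0 ± 168 CPM in the 3-month libraries (SD, n = 2 each), with an adjusted p of 0.255. Angptl4, an inhibitor of lipoprotein lipase, averaged 1.87 ± 0.2196 CPM in the 30-month libraries and 4.17 ± 2.23 CPM in the 3-month libraries (SD, n = 2 each), with an adjusted p of 0.354. These 3 genes had lower means at 30 months.

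Pnpla3, a lipid droplet enzyme of fat and liver, averaged 4.19 ± 3.29 CPM in the 30-month libraries and 13.4 ± 1.89 CPM in the 3-month libraries (SD, n = 2 each), a log2 fold change of -1.66 (adjusted p 0.535). G0s2, which inhibits the triglyceride lipase of the droplet, went the other way, at 26.8 ± 11.6 CPM in the 30-month libraries and 13.6 ± 5.97 CPM in the 3-month libraries (SD, n = 2 each), with an adjusted p of 0.478. So did Cidea, a droplet protein of brown fat, at 1.146 ± 0.533 CPM in the 30-month libraries and 0.544 ± 0.0869 CPM in the 3-month libraries (SD, n = 2 each), a log2 fold change of 1.09 (adjusted p 0.456). At an unadjusted p below 0.05 these 6 genes stood among 8.52% of all tested genes.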
